A study of Rattus norvegicus with 28 samples.

Results

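Injured cord at week 2 against culture is the comparison of 4 RNA sequencing libraries labelled as rat neural progenitor cells exposed to injured spinal cord, with a label of 2 weeks, and 4 libraries of such cells kept in culture. These 8 libraries, of the 28 in the series, were taken by their exposure labels, with no library picked by its measured values. The comparison itself was chosen with earlier results of these data known. The other 20 libraries carry labels of injured cord at 3 or 4 weeks and of spinal cord with no mention of injury, read here as uninjured, at 2, 3 or 4 weeks, with 4 libraries in each group. The study's title concerns recovery of function when neural progenitor cells are transplanted into the injured cord. The labels give no strain, animal age, injury method or cell source, and they do not say from which event the weeks are counted or whether the cells were separated from cord tissue.

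Neural progenitor cells are dividing precursors that can be expanded in culture and can give rise to neurons, astrocytes and oligodendrocytes. Injured spinal cord is a changed environment in which glial cells react, immune cells enter and a scar forms. RNA from an exposed sample can come from the labelled cells and from any host tissue taken with them. In such bulk samples, fewer cells of a type and less RNA per cell cannot be told apart, nor can cord RNA and a change inside the progenitor cells. The deposited table lists rat Ensembl gene identifiers with no gene names, and 0 of its 32545 identifiers matched the RefSeq gene table used here. The labelled cell type was therefore not checked against marker genes, and the groups of genes below are defined by their counts.

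Samples labelled as injured cord with 2 weeks had a profile far from that of cultured cells. Of 11347 genes tested, 3714 differed, which was 32.7% of them (edgeR quasi-likelihood test, p under 0.05 after Benjamini-Hochberg adjustment over all genes tested). In injured week 2 libraries 1501 genes were higher, or 13.2% of those tested, and 2213 were lower, or 19.5%. When 1 culture library was left out, 1893 to 1945 genes were called from the 7222 to 7278 that passed the filter, and 807 to 834 of them were lower. With the 11347 genes held fixed, 2354 to 2472 were called, of which 1307 to 1427 were lower. With genes at 0 counts in every library of a group set at a floor of 3 counts for that group, 864 called genes were higher by 4-fold or more and 1167 lower by as much. At 16-fold these numbers were 296 and 230. Genes with only a few counts in a group kept their fitted fold change, so these numbers may include values near the floor. Of the lower genes, 386 had a count in only 1 injured week 2 library. Since no label states that the libraries are of separate animals or cultures, p-values here refer to the spread between libraries, which may be technical.

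The week 2 libraries were much shallower. Their totals were 84532, 354143, 446331 and 336170 counts for replicates 1 to 4, against 6005847, 5273204, 5553809 and 6908508 counts in culture. The 2 groups did not overlap, so that exposure and depth cannot be told apart from the deposited counts alone. A count of at least 1 was found for 10192.5 ± 1988 genes in injured week 2 libraries and for 17060.5 ± 210.6 genes in culture (SD, n = 4 each). When every library was drawn down at random to 84532 counts, the total of injured week 2 replicate 1, the numbers came closer. They were 7310, 8625, 9121 and 8685 genes in injured week 2 libraries, and 9251, 9458, 9436 and 9350 in culture. All 4 injured week 2 libraries then still lay below all 4 of culture, at a mean of 8435 ± 782 against 9374 ± 94.2 genes (SD, n = 4 each). The exact permutation p was 0.0286, two-sided, the smallest that 4 against 4 libraries can give, and 0.0571 adjusted over the 2 library measures tested, which misses 0.05. The other measure was the share of counts taken by the 10 most abundant genes of each library. It was 26.0% ± 1.25 in injured week 2 libraries and 27.4% ± 2.05 in culture (SD, n = 4 each), a difference within the spread of the libraries (exact permutation p = 0.343, two-sided, before and after adjustment).

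**Figure D1:**
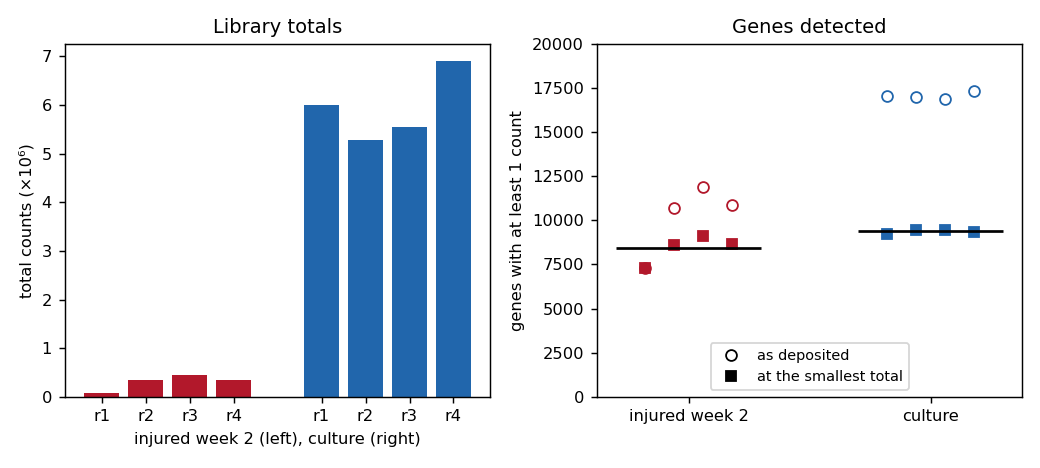
Total counts for the 4 injured week 2 and 4 culture libraries, and genes with at least 1 count in each as deposited (open circles) and after drawing every library down to 84532 counts (squares, with the group mean as a line). At equal depth the injured week 2 libraries lie between 7310 and 9121 genes and the culture libraries between 9251 and 9458.

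To compare the groups at like depth across all genes, culture counts were thinned at random to the week 2 totals, the deepest culture library to the largest week 2 total and so on. The filter on low counts then passed 5675 genes, and 1462 of these differed, which was 25.8%. In injured week 2 libraries 832 genes were higher (14.7%) and 630 lower (11.1%). Of the 5675 genes, 773 were higher and 630 lower in both tests, and 0 were called in opposite directions. All of the genes lower in the thinned test were thus also lower with the counts as deposited. Both tests use the same week 2 counts, and thinned culture counts are drawn from the deposited ones. Their shared directions are therefore not independent support. Another 583 genes lower as deposited were tested after thinning and not called, against 66 of the higher genes. A further 1000 lower and 662 higher genes no longer had enough counts to be tested. Across 5 random draws of the thinning the test called 1424 to 1497 genes, of which 800 to 843 were higher.

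The balance of higher and lower genes depended on depth and scaling. Higher genes made up 40.4% of the calls as deposited and 56.9% after thinning. With upper quartile in place of TMM factors, the thinned share was 46.1%. The median log2 fold change of the 5675 genes was -0.29 in the test as deposited and -0.03 after thinning. When the deposited counts of those genes were scaled and tested on their own, it was -0.08 and the share of higher genes was 51.2%. No excess of lower or of higher genes is therefore read from these counts.

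**Figure D2:**
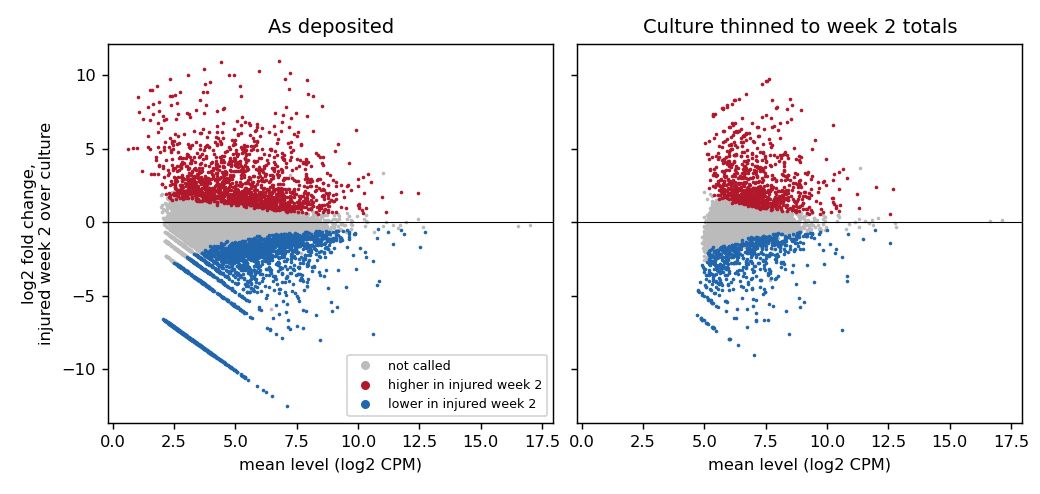
Log2 fold change of each gene, injured week 2 over culture, by its mean level in log2 CPM, with the deposited counts (left, 11347 genes) and with culture thinned to the week 2 totals (right, 5675 genes). The 1501 higher and 2213 lower genes on the left become 832 and 630 on the right, and the diagonal bands are genes with 0 or a few counts in the week 2 libraries.

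Replicates of the 2 groups were not equally alike. In the thinned counts, the Spearman correlation across the 5675 genes was 0.509 to 0.715 between pairs of injured week 2 libraries (mean 0.610, 6 pairs) and 0.831 to 0.915 between pairs of culture libraries (mean 0.872, 6 pairs). Between an injured week 2 and a culture library it was 0.242 to 0.393 (mean 0.319, 16 pairs). Every pair within a group was thus more alike than any pair across the 2 groups. Genes can pass the filter on low counts through 1 group alone, which by itself favours lower values across the groups. The 3 lowest values within injured week 2 were those with replicate 1, the shallowest library, and the other 3 pairs lay between 0.674 and 0.715. These correlations are across genes, which do not replicate one another, and are given without a p.

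**Figure D3:**
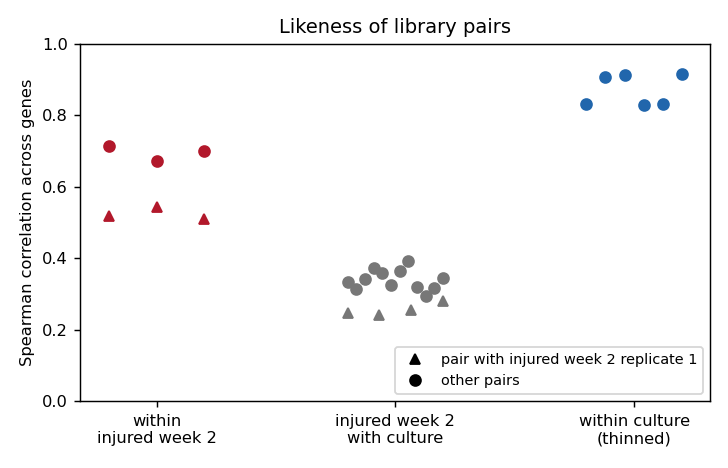
Spearman correlation across 5675 genes for each pair of libraries, with culture thinned to the week 2 totals. Triangles are pairs with injured week 2 replicate 1. Pairs within injured week 2 lie between 0.509 and 0.715, pairs across the groups between 0.242 and 0.393, and pairs within culture between 0.831 and 0.915.

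On the same 5675 genes, the biological coefficient of variation, the spread between libraries beyond counting noise, was 66.4% in injured week 2 libraries and 10.4% in thinned culture libraries. It was 54.1% in injured week 2 without replicate 1 and 53.1% in uninjured week 2 libraries. The main test uses 1 spread per gene for both groups. A fit that weighted the groups by their own spread (limma voom with group weights, chosen after the data were seen) called 2571 of the 11347 genes, 862 higher and 1709 lower. These included 862 of the 1501 genes higher in edgeR and 1446 of the 2213 lower ones, and 0 genes in the opposite direction. The 2 fits used the same counts, so this too is not independent support. In CPM, the counts of a gene scaled to a common library total, the 4 injured week 2 libraries lay wholly above the 4 culture libraries for 1252 of the 11347 tested genes (11%) and wholly below for 2824 (24.9%). Of the called genes, 1092 of the 1501 higher and 2098 of the 2213 lower ones were among these. A count of 0 in a shallow week 2 library lies below any culture level above 0. Lying wholly below is thus partly set by depth, and these numbers are not read as support for the calls.

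Called genes of both directions were found at low and at high levels. Of the 2837 tested genes with the lowest mean CPM over the 8 libraries, 4.65% were higher in injured week 2 and 24.8% lower. Of the 2837 with the highest mean CPM, 20.7% were higher and 24.5% lower. At a low mean level, genes pass the filter on low counts more easily through the deep culture libraries, which favours lower calls. No trend is therefore read from these levels. For each tested gene, the counts that the 4 week 2 libraries would hold together at the culture level were predicted from the library totals. Of the 518 genes with a prediction of at least 300 counts, 280 were lower (54.1%) and 31 higher (5.98%). Of the 3811 genes predicted at 30 to 100 counts, 673 were lower (17.7%) and 329 higher (8.63%). Of the 1744 genes predicted at 3 to 10 counts, 198 were lower (11.4%) and 426 higher (24.4%). Below a prediction of 3 counts 213 genes were tested, and 211 of them were higher. Those genes passed the filter on low counts through their week 2 level, and so had to be higher. The predicted count is the culture level itself, 1 side of the comparison, which by itself favours lower calls where it is high and higher calls where it is low. No trend is therefore read from these predicted counts.

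A part of the lower genes had no count at all. All 4 injured week 2 libraries had 0 counts for 395 of the 2213 lower genes, while 735 lower genes had counts in all 4. Set against a floor of 3 counts for the 4 libraries together, the 395 genes were lower by at least 1.54-fold to 91.4-fold, with a median bound of 3.81-fold, and for 46 of them the bound was at least 10-fold. The floor covers counting error only. Of all 7404 genes in the table with a prediction of at least 20 counts, 98 (1.32%) had 0 counts in injured week 2. In uninjured week 2 libraries this was so for 65 of 7127 genes, and 27 genes were at 0 in both. Among the 1501 higher genes, 1253 had counts in all 4 injured week 2 libraries and 235 in 3 of them, and 8 had 0 counts in all 4 culture libraries. Culture libraries were far deeper, and genes can pass the filter on low counts through them alone, so the 395 and the 8 genes are not compared.

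Single genes are given by identifier. The rule asked for a call in the same direction as deposited and thinned, no overlap of the libraries in CPM and at least 20 counts in the group where the gene is higher. It was met by 708 higher and 625 lower genes. Because the files do not pair identifiers with names, the 2 with the largest and the 2 with the smallest log2 fold change in the thinned test are described. All 4 were at 0 counts in 1 group of that test, and it rests on 1 random draw, so their rank depends on fitted values and is not a result.

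ENSRNOG00000004575 had 153.8, 429.2, 302.5 and 374.8 CPM in injured week 2 libraries, from 426 counts in all, 13 of them in replicate 1. In culture it had 2, 3, 5 and 3 counts, or 0.333, 0.569, 0.900 and 0.434 CPM. Every injured week 2 library lay far above every culture library, although replicate 1 had the fewest counts. On the log2 scale the fold change was 9.03, with 0.50 as its standard error (edgeR adjusted p = 9.31e-08).

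ENSRNOG00000019689 had 17, 141, 130 and 99 counts in injured week 2 libraries, or 201.1, 398.1, 291.3 and 294.5 CPM. In culture it had 5, 6, 8 and 10 counts, or 0.833, 1.14, 1.44 and 1.45 CPM. The groups were again far apart, and the fold change on the log2 scale was 7.83, with 0.40 as its standard error (edgeR adjusted p = 5.54e-08). Both genes had 0 counts in all 4 culture libraries once these were thinned, so the fold changes of the thinned test are not given for them.

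ENSRNOG00000012660 had 0 counts in all 4 injured week 2 libraries. In culture it had 1412, 1227, 1228 and 1462 counts, or 235.1, 232.7, 221.1 and 211.6 CPM. Thinned to the week 2 totals, culture still held 87, 25, 74 and 83 counts of this gene, so the depth of the week 2 libraries would have shown it at the culture level. It was at least 91.4-fold lower in injured week 2, against the same floor (edgeR adjusted p = 3.34e-06).

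ENSRNOG00000046660 likewise had 0 counts in all 4 injured week 2 libraries. In culture it had 805, 656, 906 and 976 counts, or 134.0, 124.4, 163.1 and 141.3 CPM, and 47, 14, 45 and 62 counts after thinning. It was at least 57.3-fold lower in injured week 2 against that floor (edgeR adjusted p = 1.42e-05).

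The same 4 genes had unlike courses in the other exposed groups. ENSRNOG00000004575 stood at 315.1 ± 119.4 CPM in injured week 2, 8.25 ± 3.96 in injured week 3 and 56.8 ± 17.0 in injured week 4 (SD, n = 4 each). In uninjured cord it stood at 212.8 ± 30.8 CPM at week 2, 436.8 ± 113.2 at week 3 and 346.8 ± 81.6 at week 4 (SD, n = 4 each). Injured week 2 thus overlapped all 3 uninjured groups and neither of the later injured groups.

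ENSRNOG00000019689 stood at 296.3 ± 80.5 CPM in injured week 2, 18.5 ± 18.4 in injured week 3 and 2.96 ± 1.81 in injured week 4 (SD, n = 4 each). In uninjured cord it stood at 237.6 ± 80.7 CPM at week 2, 247.4 ± 110.4 at week 3 and 140.4 ± 20.4 at week 4 (SD, n = 4 each). Its injured week 2 libraries overlapped those of uninjured weeks 2 and 3.

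ENSRNOG00000012660 was low in every exposed group, with at most 2.34 CPM in any of the 24 exposed libraries. ENSRNOG00000046660 was not. It stood at 48.6 ± 11.9 CPM in injured week 3 and 8.18 ± 2.92 in injured week 4 (SD, n = 4 each). In uninjured week 2 it had 0, 15, 0 and 0 counts, so that 1 library made up the whole level of its group. In uninjured weeks 3 and 4 it lay between 0.733 and 6.53 CPM.

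**Figure D4:**
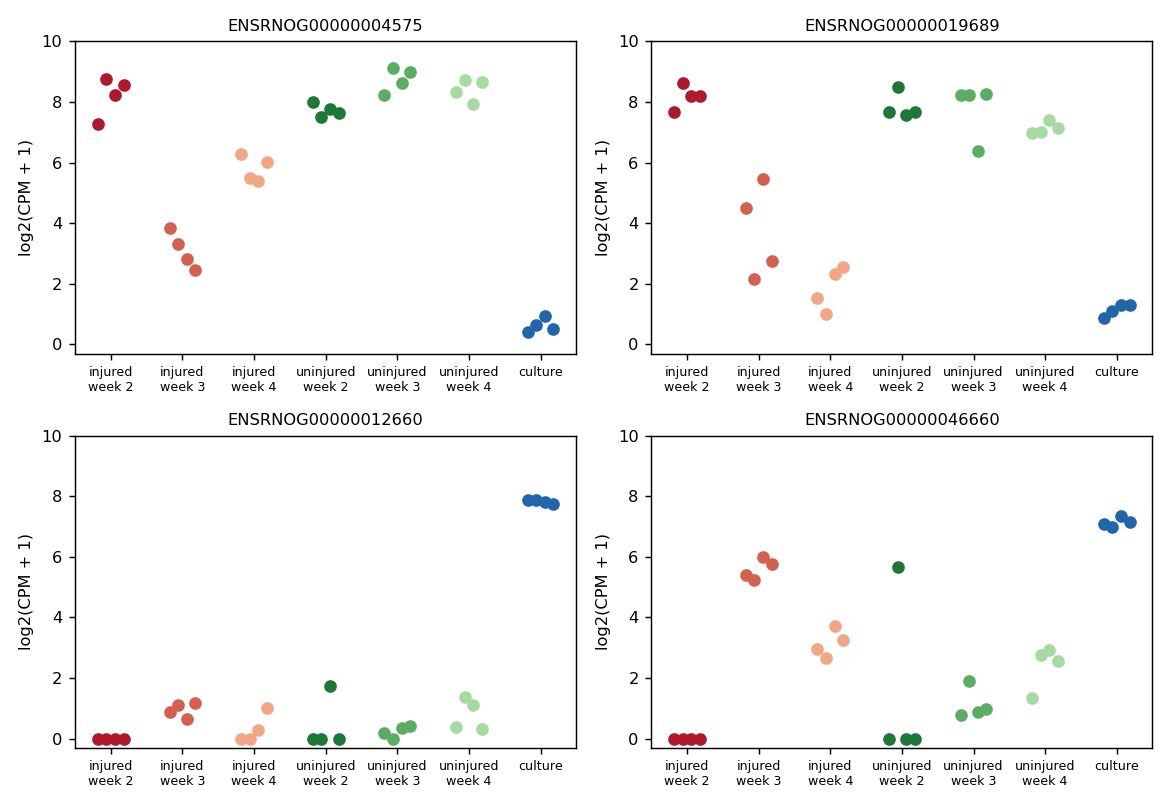
Level of the 4 printed genes in each of the 28 libraries, as log2(CPM + 1), by group. Injured week 2 libraries lie near the uninjured groups for ENSRNOG00000004575 and ENSRNOG00000019689 and at 0 for ENSRNOG00000012660 and ENSRNOG00000046660, which had 211.6 to 235.1 and 124.4 to 163.1 CPM in culture.

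The 773 genes higher and the 630 genes lower in both tests were chosen on the injured week 2 and culture values, so their levels there are a description. The higher genes took 22.1% ± 0.806 of all counts in injured week 2 libraries and 5.29% ± 0.462 in culture (SD, n = 4 each). Their share was 6.57% ± 1.19 in injured week 3, with 8.34% in replicate 3 and 5.88 to 6.06% in the others, and 14.1% ± 1.36 in injured week 4 (SD, n = 4 each). In uninjured cord it was 19.2% ± 2.60 at week 2 and 23.9% ± 1.42 at week 4 (SD, n = 4 each), and at week 3 the mean was 25.2% with libraries between 23.8 and 26.1%. Injured week 2 libraries ranged over 21.0 to 22.9%, and those of uninjured week 2 over 15.4 to 20.8%. Because the genes were chosen for high values in these injured week 2 libraries, that gap is not read as a difference between injured and uninjured cord. The choice favours injured week 2 in the same way over injured weeks 3 and 4.

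The lower genes took 4.42% ± 0.307 of the counts in injured week 2 libraries and 16.9% ± 0.412 in culture (SD, n = 4 each). Their share was 13.2% ± 1.74 in injured week 3 and 7.72% ± 0.495 in injured week 4 (SD, n = 4 each). In uninjured cord it was 4.78% ± 0.322, 4.92% ± 0.193 and 5.32% ± 0.333 at weeks 2, 3 and 4 (SD, n = 4 each). All libraries of injured weeks 3 and 4 lay above all of injured week 2, the group whose low values chose these genes. Injured week 3 replicate 3, which lacked many genes its companions expressed, had the highest value of its group for both shares. Without it, injured week 3 ranged over 11.9 to 12.6%.

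**Figure D5:**
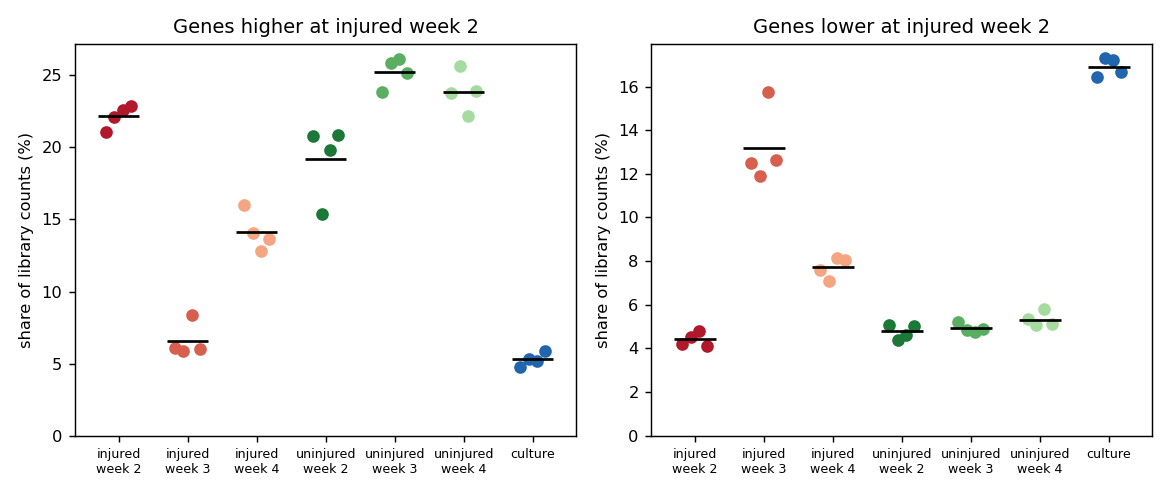
Share of each library's counts, in percent, in the 773 genes higher (left) and the 630 genes lower (right) at injured week 2 than in culture in both tests, with the group mean as a line. For the higher genes injured week 2 lies at 21.0 to 22.9%, near the uninjured groups, while injured week 3 lies at 5.88 to 8.34%, near culture at 4.77 to 5.89%.

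The median level gave the same order for the higher genes. As log2(CPM + 1) of the summed counts of a group, it was 7.32 in injured week 2, 5.28 in injured week 3 and 6.17 in injured week 4. In uninjured weeks 2, 3 and 4 it was 7.08, 7.45 and 7.37, and in culture it was 5.10. The median level of the lower genes was 4.68, 6.79 and 5.84 in injured weeks 2, 3 and 4. In uninjured weeks 2, 3 and 4 it was 5.14, 5.15 and 5.07, and in culture it was 7.26.

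Injured week 2 was then tested against the uninjured libraries of the same week, which are of like depth (189626 to 426992 counts). Of 4992 genes, 0 differed between injured and uninjured week 2 (0% called, edgeR adjusted p under 0.05; the smallest adjusted p was 0.320). An unadjusted p under 0.05 was found for 135 genes, or 2.70% of those tested, fewer than the 249.6 expected if no gene differed. DESeq2 called 4 genes. With all 28 libraries in 1 fit, which gives shallow and deep groups a common spread, 300 of 13865 genes were called. A p that misses the threshold does not show that the groups were alike. The test is the one over all 4992 genes. The higher and lower genes were chosen on these same injured week 2 libraries, which favours differences above 0 for the higher and below 0 for the lower ones, so their medians are a description only. Among the 773 higher genes 771 could be tested, with a median log2 difference of 0.13 (quartiles -0.13 and 0.42) and a median standard error of 0.45. The 95% interval of the difference lay within 2-fold either way for 202 of the 771 genes and within 4-fold for 690. Among the 630 lower genes only 298 had enough counts to be tested. Their median log2 difference was -0.21 (quartiles -0.57 and 0.14), and the interval lay within 4-fold for 198 of them. Over all 4992 genes the median was -0.02 (quartiles -0.39 and 0.34), and 3224 intervals lay within 4-fold.

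ENSRNOG00000004575 had a log2 fold change of 0.48 between injured and uninjured week 2, and its 95% interval ran from -0.26 to 1.22 (edgeR adjusted p = 0.99996). For ENSRNOG00000019689 it was 0.16, with an interval of -0.60 to 0.92 (edgeR adjusted p = 0.99996). The 2 lower genes had too few counts at week 2 for this test.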

How the data were processed

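Per the labels' protocols, Trizol extraction and a DNase step preceded library preparation with a stranded kit made for low amounts of total RNA. What the authors deposited is a single table of unnormalized read counts, with a row for each gene and a column for each library. The submitters' processing notes name, without roles, STAR 2.5.1 and featureCounts 1.5.1 beside FastQC 0.11.5, Trim Galore 0.4.1, Picard and StringTie 1.3.3. They also name GRCm38, a mouse build, although the identifiers are of rat genes. Annotation, strand setting and treatment of duplicates are not stated in the sources used here. Genes that overlap or have close copies thus have uncertain counts, and reads without molecular identifiers are not independent molecules.

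The 8 libraries were fitted alone with edgeR 4.0.16 in R 4.3.3 (TMM factors, filterByExpr by group, robust quasi-likelihood F test, Benjamini-Hochberg adjustment over all genes tested, called at 0.05). Injured and uninjured week 2 libraries were fitted in the same way. CPM values use the deposited totals. Thinning drew each culture count binomially. For correlations between libraries, log2 CPM was computed with 2 as the prior count. Alternatives used DESeq2 1.42.0 and limma 3.58.1. The fits were also run on simulated counts, with equal spread in both groups and with spread as unequal as in these groups. A pass was required there only of the edgeR fit with equal spread in both groups. The groups here had unequal spread, so that requirement does not cover them. Calls from the simulation with unequal spread are not given here. No pair of libraries within injured week 2, uninjured week 2 or culture was identical, and each pair differed beyond counting noise (chi-square per degree of freedom of 5.36 to 9.88). Replicate numbers follow the order of deposition. The comparison, gene lists and tests were chosen with earlier results of these data known. The 29 gene lists and the naming of marker genes needed symbols and were not used. Genes were to be named if called in the same direction as deposited and thinned, without overlap of the groups in CPM and with at least 20 counts in the higher group, ranked by the thinned log2 fold change. That rule was applied without the symbol it also asked for.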

Additional observations from a re-analysis of the deposited data

Results flagged for a closer look

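In 61 groups of 4 libraries with unequal values, Dixon's ratio marked 1 library as far from its companions in 9, while about 3.05 would be marked by chance. In 2 of the 9 the other 3 libraries were all at 0, which fixes the ratio at its maximum. Both were in uninjured week 2, where ENSRNOG00000012660 had 2.34 CPM in replicate 3 and ENSRNOG00000046660 had 50.2 CPM in replicate 2.

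None of the flags fell on an injured week 2 library, and 1 fell on culture. The 10 most abundant genes took 30.4% of the counts in culture replicate 1 and 26.1 to 26.6% in the others. Injured week 3 replicate 3 stood apart in the share of the genes higher at injured week 2, with 8.34% against 5.88 to 6.06% in the others. It also stood apart in genes detected at equal depth, with 7820 against 9318 to 9441. ENSRNOG00000019689 had 358.2 CPM in uninjured week 2 replicate 2, against 187.4 to 204.4 in the others of that group. In uninjured week 3 it had 81.8 CPM in replicate 3, against 300.3 to 306.1 in the others. ENSRNOG00000046660 had 2.77 CPM in uninjured week 3 replicate 2, against 0.733 to 0.969 in the others. The total of uninjured week 3 replicate 1 was 6824050 counts, the highest of its group.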

How the results depend on the processing

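The 4 printed genes kept their direction and their call against culture under all 38 alternatives, and the 2 tested at week 2 stayed uncalled under all 25. These 4 were chosen for extreme fold changes in the same libraries, so their kept calls against culture say little about other genes. Counts of calls did move. Against culture, RLE factors, upper quartile factors, DESeq2, voom, a fold change of 1.5, all 28 libraries and a filter of 3 counts in all libraries of a group gave 2816 to 4957 calls, within 1.5 times the 3714. Higher calls fell outside that range with voom (976) and voom with group weights (862). With no filter there were 5591 calls, 2795 of them higher. Thinning gave 1462 calls (832 higher and 630 lower), and the other draws gave 1497 (843 and 654), 1436 (811 and 625), 1424 (800 and 624) and 1434 (823 and 611). Thinned counts with RLE factors gave 1502 (797 and 705), with upper quartile factors 1561 (720 and 841) and with voom and group weights 1668 (890 and 778). The deposited counts of the genes tested when thinned gave 2018, of which 984 were lower. The fits of thinned counts with another scaling or tool, and those with the genes held fixed, were chosen after the data were seen.

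Leaving out 1 library at a time gave 1072 to 5015 calls over all such fits, 635 to 2056 higher and 437 to 2959 lower. The ranges differed by kind. Without 1 injured week 2 library there were 4481 to 5015 calls, the most without replicate 1. Without 1 culture library there were 1893 to 1945, from only 7222 to 7278 genes tested, since the filter depends on the median depth. With the 11347 genes held fixed, they were 2354 to 2472. With genes held fixed, 2202 of the 3714 genes were called in the same direction in all 8 fits, 973 higher and 1229 lower. With thinned culture and 1 library of each group left out there were 1757 calls without replicate 1, and 1072 to 1094 without another. Over these thinned fits 635 to 1031 genes were higher and 437 to 726 lower.

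Between injured and uninjured week 2, DESeq2 called 4 genes, no filter 6, the filter of 3 counts 7 and all 28 libraries 300. Without 1 library there were 0 to 1 calls. RLE and upper quartile factors, both voom fits and the fold change of 1.5 gave 0, with 64 to 201 genes at an unadjusted p under 0.05. The cause of these differences was not tested. Leaving out mitochondrial and ribosomal RNA genes was planned and not run, because it needs gene names. No paired analysis was possible because the labels give no replicate numbers that link libraries of different groups. The depth of the week 2 libraries limits what can be said of many genes. Only 5675 of the 11347 genes passed the filter on low counts with culture thinned. Of the genes called as deposited, 1000 lower and 662 higher ones could then not be tested.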
